A study of Mus musculus with 22 samples.

Results

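The cytosolic ribosomal protein genes of the mouse were followed across chromatin accessibility maps of germ cells. They were taken as the RefSeq protein-coding genes whose symbol is Rpl or Rps with a number, plus Rplp0, Rplp1, Rplp2 and Rpsa, leaving out the S6 kinases and pseudogenes. The rule gave 81 genes of 21900 protein-coding genes, 50 of the large and 31 of the small ribosomal subunit. Each gene was represented by the peak within 1 kb of an annotated gene end that had the highest mean count. Such a peak was found for 77 of the 81 genes, and for 15597 protein-coding genes in all. Ribosomal proteins with other symbols, such as Fau, fall outside the rule and are given separately.

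Ribosomal proteins assemble with ribosomal RNA into the small and large subunits of the ribosome, which read messenger RNA and join amino acids. Their genes are active in nearly all cells, and many of their transcripts begin with a run of C and T bases, the 5′ terminal oligopyrimidine tract, through which mTOR signalling controls their translation. In male germ cells the X chromosome is silenced at meiosis, and in mouse the autosomal copies Rpl10l and Rpl39l supply testis forms of the X-encoded proteins Rpl10 and Rpl39.

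The study mapped open chromatin by ATAC-seq, a method that uses Tn5 transposase to cut and tag accessible DNA, in germ cells of C57BL/6 mice aged 8 to 12 weeks, sorted by FACS. TERT, the catalytic subunit of telomerase, was acutely deleted by tamoxifen-induced Cre. TERT-deleted spermatogonia formed 3 groups: MCAM-high KIT-negative, MCAM-medium KIT-negative and MCAM-medium KIT-positive, with 3 libraries each, all from day 7 after tamoxifen. TERT-hetero spermatogonia, here called control, formed the same 3 groups with 3, 2 and 3 libraries, also from day 7 after tamoxifen. MCAM is a surface adhesion molecule, and KIT marks spermatogonia that have begun to differentiate. The genotype entry of both reads TertCreER/+:Rosalsl-Tdtomato/+, so that deleted and control rest on the titles alone. A further 5 libraries came from later germ cells of TertTdtomato/+ mice, for which no time point after tamoxifen is entered, although the treatment text is the same for all samples. In all groups 1 Tert allele carries an insertion, the inserted Cre is driven from the Tert locus, and the library names of the later cells share 1 source number. Title and library name disagree on spermatocyte or round spermatid in 4 of these 5 libraries, so they were kept as 1 group, later germ cells.

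Total counts in peaks were 922085 to 3358377 per library, and by these unadjusted totals 3 counts corresponded to 0.893 to 3.25 CPM. Levels in CPM are otherwise counts scaled to the library's TMM-adjusted total, by which 3 counts give somewhat different values. Control KIT-positive replicate 3 stood apart, with 57% of its counts in gene-end peaks, against 46.2% and 51.2% in replicates 1 and 2. It also had an even number in 73.9% of its nonzero counts. In the same measures deleted KIT-positive replicate 1 had 55.8% and 70.5%, and deleted MCAM-medium replicate 3 had 45.5% and 73.7%. Of 6 spermiogenesis markers 6 were higher and of 5 differentiating spermatogonia markers 5 were lower in later germ cells than in control KIT-positive cells. Markers of Sertoli, Leydig, immune and peritubular cells were above 0 in every group. The summed levels of 1 Leydig and 3 Sertoli markers with a peak overlapped between KIT-positive and MCAM-high groups, at 15.7 to 41.9 CPM in KIT-positive and 31.1 to 51.4 CPM in MCAM-high control libraries for Leydig, and 52.6 to 75.3 CPM against 53 to 70.6 CPM for Sertoli. In later germ cells these 2 lists were at 6.16 to 15.8 and 30.1 to 32.9 CPM, and of 3 peritubular or endothelial markers 3 were lower than in control KIT-positive cells. Of 6 meiosis markers 4 were higher in control KIT-positive than in control MCAM-high cells, and 1 in deleted cells. Of 5 differentiating markers, Kit and Stra8 were higher and Ccnd2 lower in KIT-positive cells of both genotypes. Of 9 undifferentiated markers tested, Id4 and Etv5 were higher in deleted KIT-positive cells and Nanos2 lower in control ones, and the list's summed levels were 328 to 413 CPM in deleted KIT-positive and 255 to 271 CPM in deleted MCAM-high libraries. In the same contrasts Acta2, a peritubular marker, was higher in control cells and Amh, a Sertoli marker, lower in deleted cells. The part of these cell types in the results was not tested. In spermatogonia, library names carry source numbers that recur across the 3 populations of a genotype. The labels do not tie these numbers or the replicates to separate animals. P-values therefore describe the spread from library to library, which may be technical.

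RefSeq (mm10, GRCm38) lists a start-site sequence for 61 of the 81 genes. The sequences below run from 80 bases before to 20 bases from the start, 5′ to 3′ on the gene's strand, and a run of at least 8 C or T bases near the start is in capitals. The first set shows genes with such a run that are described below, namely Rpl38, Rpl4 and Rps6, which were more accessible in control KIT-positive cells than in MCAM-high cells, and Rpl15 and Rps10, which were less accessible in later germ cells. Rpl27, which was also more accessible in KIT-positive cells, is shown because it has no such run.
Rpl38 (chr11:114668500-114668599, plus strand): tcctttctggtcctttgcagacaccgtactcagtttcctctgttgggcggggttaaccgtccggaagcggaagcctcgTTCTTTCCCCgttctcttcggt
Rpl4 (chr9:64173307-64173406, plus strand): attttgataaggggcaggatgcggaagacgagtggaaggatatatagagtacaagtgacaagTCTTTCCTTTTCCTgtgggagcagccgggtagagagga
Rps6 (chr4:86857348-86857447, minus strand): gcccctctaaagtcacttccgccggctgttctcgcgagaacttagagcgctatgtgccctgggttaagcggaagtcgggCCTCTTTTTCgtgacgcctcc
Rpl15 (chr14:18270967-18271066, minus strand): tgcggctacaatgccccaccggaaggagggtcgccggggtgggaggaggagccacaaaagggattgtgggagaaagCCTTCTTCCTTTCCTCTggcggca
Rps10 (chr17:27635225-27635324, minus strand): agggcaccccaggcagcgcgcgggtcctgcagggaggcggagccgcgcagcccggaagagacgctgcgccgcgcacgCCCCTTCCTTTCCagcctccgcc
Rpl27 (chr11:101442165-101442264, plus strand): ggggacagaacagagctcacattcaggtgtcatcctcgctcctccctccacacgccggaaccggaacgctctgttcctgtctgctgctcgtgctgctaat
The second set holds 2 X-linked genes and the autosomal copy of 1 of them, which differed between later germ cells and KIT-positive cells.
Rpl10 (chrX:74270736-74270835, plus strand): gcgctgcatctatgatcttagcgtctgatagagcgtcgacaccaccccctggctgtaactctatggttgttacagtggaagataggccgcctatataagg
Rpl10l (chr12:66284382-66284481, minus strand): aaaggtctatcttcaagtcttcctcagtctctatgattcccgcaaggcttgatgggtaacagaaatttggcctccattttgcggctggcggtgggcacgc
Rps4x (chrX:102189372-102189471, minus strand): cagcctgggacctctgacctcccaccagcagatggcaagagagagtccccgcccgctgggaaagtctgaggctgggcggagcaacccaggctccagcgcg

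A run of at least 8 C or T bases around the start was present in 27 of the 61 sequences (44.3%), against 13.6% of 17492 promoters of protein-coding genes. Further motifs were searched on both strands, from 250 bases before to 50 bases after the start. CCGGAAG, a core bound by ETS factors, was in 39.3% of the ribosomal protein promoters and in 11.9% of all promoters. AANATGG, from the YY1 site, was in 31.1% and 15.4%, a motif shortened by its last base after a first search had been seen. GGGCGG, the SP1 core, was in 57.4% and 46.3%, and the E-box CACGTG in 8.2% and 7.91%. TATAAA on the gene's strand between 40 and 10 bases before the start was in 0 of 61, against 2.9% of all promoters. Median GC content was 57% and 56.3%. The reverse strand of CCGGAAG and of AANATGG can overlap the C or T run, and a match describes the letters only.

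The chosen peaks were 391 to 2382 bp wide, with a median of 922 bp, and were mostly start-site peaks: 52 of the 58 genes with both a peak and a listed start had the start inside the peak. Of the 77 peaks, 22 also lay at an end of another protein-coding gene, so that their signal cannot be given to 1 gene alone. The peak chosen for Rps2, a small subunit protein, was only 391 bp wide (chr17:24717904-24718295), lay 1768 bp from the listed start and was shared with Rnf151. Those of Rpl18, Rpl19, Rps18 and Rpl41 also lay away from the start. The peak chosen for Rpl3l, a copy of Rpl3 known from muscle, lay beyond its far end and was shared with Msrb1. Rpl22 and Rps27l had a start-site peak just outside the 1 kb limit, Rpl17 had a peak inside the gene, and for Rpl32l the nearest peak was 2562 bp away. Small nucleolar RNA genes lay inside 29 of the 81 genes, 58 in all and 5 in Rpl4. Counts were not assigned to exons, introns or UTRs, which the gene table does not hold.

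The ribosomal protein peaks differed several-fold in level among themselves. As mean CPM per kb of peak over the 22 libraries, levels ran from 18.3 to 115 with a median of 42.7, a 6.28-fold range. Among the highest were Rpl37 at 115, Rps19 at 105, Rpl15 at 98.7 and Rpl13a at 89.6 CPM per kb. The lowest were Rps4x at 18.3, Rpl39 at 21.9, Rps26 at 23.1, Rpl37a at 23.6 and Rpl6 at 23.7 CPM per kb. These means weight the 5 later libraries, in which the X-linked Rps4x and Rpl39 were low. Genes of both subunits were found along the whole range in the plot of ranked levels.

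**Figure D1:**
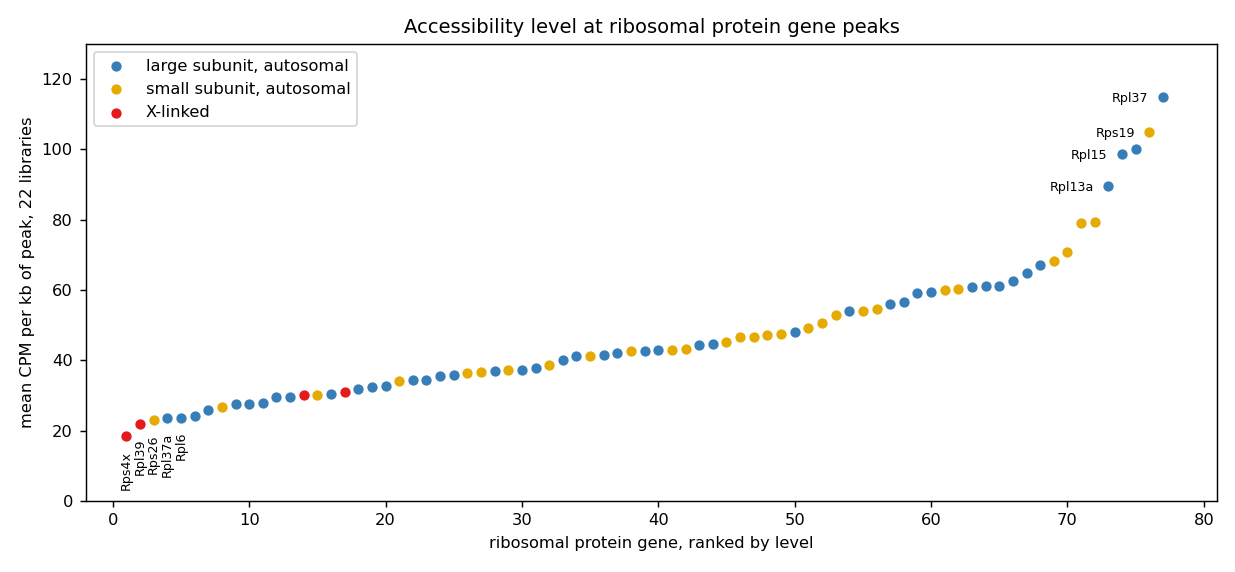
Mean accessibility in CPM per kb of peak over 22 libraries (vertical axis) for the 77 ribosomal protein genes with a gene-end peak, ranked from lowest to highest (horizontal axis). Colours mark autosomal large subunit, autosomal small subunit and X-linked genes, and the lowest values are Rps4x (18.3) and Rpl39 (21.9), both X-linked.

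Taken as a whole, the ribosomal protein peaks held a larger share of the counts in KIT-positive cells than in MCAM-high cells of either genotype. The 77 peaks held 0.354% ± 0.00807 of all counts in deleted KIT-positive libraries, against 0.281% ± 0.0125 in deleted MCAM-high libraries (SD, n = 3 each). In control libraries they held 0.36% ± 0.0286 in KIT-positive cells and 0.294% ± 0.00964 in MCAM-high cells (SD, n = 3 each). MCAM-medium cells were close to MCAM-high cells, with 0.287% ± 0.00618 in deleted (SD, n = 3) and 0.297% ± 0.00354 in control libraries (SD, n = 2). Within each genotype no KIT-positive library overlapped with an MCAM-high library. Gene-end peaks in general also held more counts in KIT-positive cells, 52.5% in deleted and 51.5% in control libraries, against 45.1% and 45.6% in MCAM-high libraries of deleted and control mice. As a share of gene-end counts alone, the ribosomal protein peaks still ran from 0.685% to 0.721% in control KIT-positive libraries and from 0.631% to 0.668% in control MCAM-high libraries. In deleted libraries the ranges were 0.649% to 0.71% in KIT-positive cells and 0.604% to 0.636% in MCAM-high cells. MCAM-medium libraries ran from 0.615% to 0.65% in deleted cells, overlapping with KIT-positive ones, and from 0.632% to 0.668% in control cells. Later germ cells ran from 0.695% to 0.808%, so a higher share of gene-end counts was not particular to KIT-positive cells. These are bulk libraries, in which a change in the mix of cells and a change in accessibility per cell cannot be told apart.

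**Figure D2:**
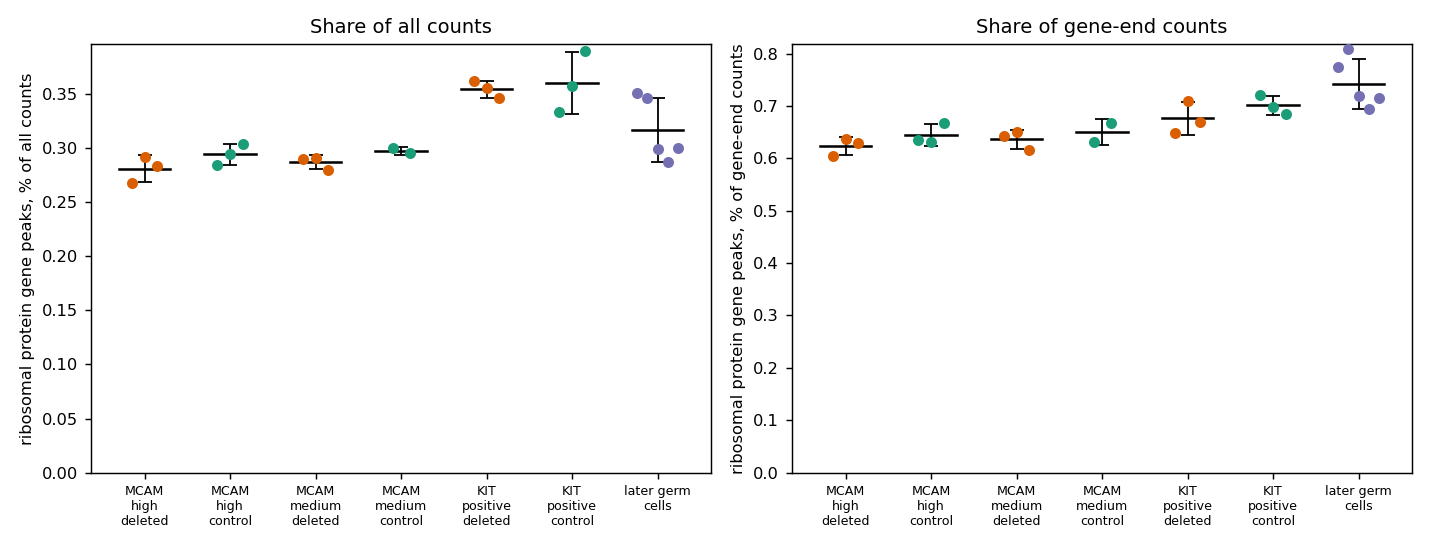
Share of counts in the 77 ribosomal protein gene peaks in each library (points), as percent of all counts (left) and of gene-end counts (right), with the mean and SD of each group (bars). KIT-positive libraries lie above the MCAM-high libraries of the same genotype in both panels.

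In control cells, 21 of the 76 ribosomal protein peaks tested were higher in KIT-positive than in MCAM-high libraries and 0 were lower (edgeR quasi-likelihood test, Benjamini-Hochberg adjusted p under 0.05 over all peaks). Of all peaks tested, 9.64% were higher and 6.11% lower by the same rule, and of gene-end peaks 17% were higher. The ribosomal protein share was 27.6%. The median log2 fold change was 0.53 over the 76 peaks, 0.25 over all gene-end peaks and -0.05 over all peaks, and 67 of the 76 values were positive. Large subunit genes gave 11 of 47 and small subunit genes 10 of 29. The X-linked genes gave 0 of 4. Where each library's counts were instead scaled by a loess curve against abundance, 15 of 76 were higher, the median was 0.31 and that of gene-end peaks 0.12. By that scaling 7.82% of all peaks and 10.5% of gene-end peaks were higher. Without control KIT-positive replicate 3, 10 of 76 were higher and the median was 0.41. Without control MCAM-high replicate 2 or 3, the count was 12 or 13. The share of all peaks called was not computed in these reduced fits. A loss of calls over all peaks therefore cannot be told apart from one at the ribosomal protein peaks.

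Rpl38, a large subunit protein known in mouse for its role in the translation of Hox transcripts, had the largest change in control cells. It had 27.2, 34.7 and 47.3 CPM in control KIT-positive libraries, against 10.7, 12.9 and 16.4 CPM in control MCAM-high libraries, and its log2 fold change was 1.47 ± 0.32 (edgeR adjusted p = 0.00119, SE after ±, as for all fold changes here). These groups did not overlap. In deleted cells it had 29.8, 37.1 and 34.4 CPM in KIT-positive libraries, against 13.4, 18.8 and 22.7 CPM in MCAM-high libraries, again without overlap. There the log2 fold change was 0.88 ± 0.33 (edgeR adjusted p = 0.0655), and the difference between the genotypes was -0.58 ± 0.46 (edgeR adjusted p = 0.996).

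Rpl27, a large subunit protein, rose in both genotypes. It had 75.5, 92.1 and 59.3 CPM in deleted KIT-positive libraries, against 35.7, 31.6 and 36.4 CPM in deleted MCAM-high libraries. In control cells it had 73, 65 and 119 CPM in KIT-positive libraries, against 32.9, 40.9 and 21.3 CPM in MCAM-high libraries. Every KIT-positive library lay above every MCAM-high library. The log2 fold changes were 1.13 ± 0.28 in deleted and 1.43 ± 0.27 in control cells (edgeR adjusted p = 0.00383 and 0.000147).

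Rps29, a zinc-binding protein of the small subunit, had the smallest adjusted p in both genotypes. It had 80.2, 146 and 147 CPM in deleted KIT-positive libraries, against 50, 65.3 and 59.9 CPM in deleted MCAM-high libraries. In control cells it had 109, 93 and 164 CPM in KIT-positive libraries, against 49.4, 45.4 and 49.2 CPM in MCAM-high libraries. The groups did not overlap, and the log2 fold changes were 1.08 ± 0.24 in deleted and 1.35 ± 0.23 in control cells (edgeR adjusted p = 0.00131 and 5.74e-05).

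Rpl4, which hosts 5 small nucleolar RNA genes and whose peak it shares with Zwilch, had 46.6, 33.6 and 31.5 CPM in control KIT-positive libraries, against 14.3, 11.1 and 18.6 CPM in control MCAM-high libraries. Rpl11, which binds the p53 regulator MDM2 when ribosome assembly is disturbed, had 44.3, 54.9 and 52.1 CPM against 21.5, 18.2 and 22.4 CPM in the same libraries. Rps23, a protein of the decoding centre, had 69.1, 73.9 and 75.8 CPM against 34.7, 26.7 and 31.2 CPM. None of these groups overlapped. The control log2 fold changes were 1.34 ± 0.34 for Rpl4, 1.27 ± 0.27 for Rpl11 and 1.23 ± 0.24 for Rps23 (edgeR adjusted p = 0.00426, 0.000694 and 0.000299). In deleted cells they were 1.22 ± 0.35, 1.04 ± 0.28 and 0.68 ± 0.25, and Rps23 there had an edgeR adjusted p of 0.0546, with a genotype difference of -0.55 ± 0.34 (edgeR adjusted p = 0.996). With all gene-end peaks of Rpl4 summed, its control value was 0.34 (edgeR adjusted p = 0.373). In deleted cells Rpl4 lost its call without MCAM-high replicate 1 or 2, at 1.17 and 1.11 (edgeR adjusted p = 0.0506 and 0.0719), and by total counts, at 0.99 (edgeR adjusted p = 0.0516).

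Rplp0, Rplp1 and Rplp2 form the stalk of the large subunit, which recruits translation factors. Rplp0 had 68.3, 80.6 and 121 CPM in control KIT-positive libraries, against 53.7, 48.5 and 41 CPM in control MCAM-high libraries, and its log2 fold change was 0.92 ± 0.24 (edgeR adjusted p = 0.00602). Rplp1 changed by 1.12 ± 0.28 (edgeR adjusted p = 0.0039). Both also rose in deleted cells, by 1.03 and 1.18. Without control KIT-positive replicate 3 the control values of Rplp0 and Rplp1 were 0.63 and 0.86 (edgeR adjusted p = 0.0994 and 0.0641), and without deleted KIT-positive replicate 1 the deleted value of Rplp1 was 0.90 (edgeR adjusted p = 0.0605). For Rplp2 the values were 0.69 in deleted and 0.41 in control cells, neither past the threshold.

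Rpsa, a small subunit protein also known as a laminin receptor, had the largest change in deleted cells. It had 54.1, 46.7 and 55.3 CPM in deleted KIT-positive libraries, against 16.9, 28.9 and 18.6 CPM in deleted MCAM-high libraries, a log2 fold change of 1.26 ± 0.29 (edgeR adjusted p = 0.00234). In control cells its change was 0.95 ± 0.28 (edgeR adjusted p = 0.0136). Leaving out control MCAM-high replicate 2 or control KIT-positive replicate 2 or 3 ended the control call of Rpsa (edgeR adjusted p = 0.0627, 0.0669 and 0.0801). Rps6, the target of the S6 kinases, rose by 0.86 in deleted and 0.82 in control cells, and its control call was lost without MCAM-high replicate 3 or KIT-positive replicate 3 (edgeR adjusted p = 0.107 and 0.131) and with loess scaling (edgeR adjusted p = 0.0872). Rps14 and Rps15a rose by 1.18 and 1.15 in deleted cells and by 0.78 and 1.22 in control cells, the deleted call of Rps15a being lost without MCAM-high replicate 3 (edgeR adjusted p = 0.0597).

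Other members did not pass the threshold. The lowest control value was that of Rps9, at -0.51 ± 0.29 (edgeR adjusted p = 0.252), with 23.3, 20.2 and 20.6 CPM in KIT-positive libraries, against 27.2, 30.7 and 33.4 CPM in MCAM-high libraries. Rpl5, the partner of Rpl11 in binding MDM2, was at -0.25, Rps27a, which is made as a fusion with ubiquitin, at 0.05 and Rps27 at -0.03. Rps19, which is mutated in Diamond-Blackfan anaemia, was at 0.20 in control cells and passed the threshold in deleted cells at 0.77 (edgeR adjusted p = 0.00796). Its genotype difference was 0.57 ± 0.29 (edgeR adjusted p = 0.996). The X-linked Rpl10, Rpl39, Rps4x and Rpl36a were at 0.29, 0.31, 0.14 and 0.08 in control cells. The copies Rpl10l and Rpl39l were at 0.03 and -0.07, Rpl3 at 0.71 and Rpl3l at -0.03. The control signs of Rpl10l, Rpl36a, Rps27a, Rps4x, Rps19 and Rpl39l flipped under total-count or loess scaling.

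In deleted cells, 20 of 76 were higher in KIT-positive than in MCAM-high libraries and 0 were lower, against 9.39% of all peaks higher and 4.35% lower and 16.3% of gene-end peaks higher, with a median log2 fold change of 0.61 against 0.23 over gene-end peaks. Of the 20, 16 were also among the 21 of control cells, which is 80% of the deleted and 76.2% of the control list. The overlap over all peaks was not computed, and that of the contrasts against MCAM-medium cells, given below, was smaller. The 2 genotypes share no library, and Pearson's r between their log2 fold changes was 0.68 over the 76 peaks, given as a description because both come from 1 fit and genes are not replicates. The difference between the genotypes itself was tested, and 0 of 76 passed (0% of all peaks), with 2 at an unadjusted p under 0.05, Rpl9 at -1.08 and Rpl5 at 0.89. Leaving out deleted MCAM-high replicate 3 left 11 higher, and leaving out deleted MCAM-high replicate 1 or 2 or deleted KIT-positive replicate 1 left 13 each. For these reduced fits too, the share of all peaks called was not computed. With loess scaling 11 were higher and the median was 0.29. By that scaling 7.12% of all peaks and 6.92% of gene-end peaks were higher, and the gene-end median was 0.04.

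**Figure D3:**
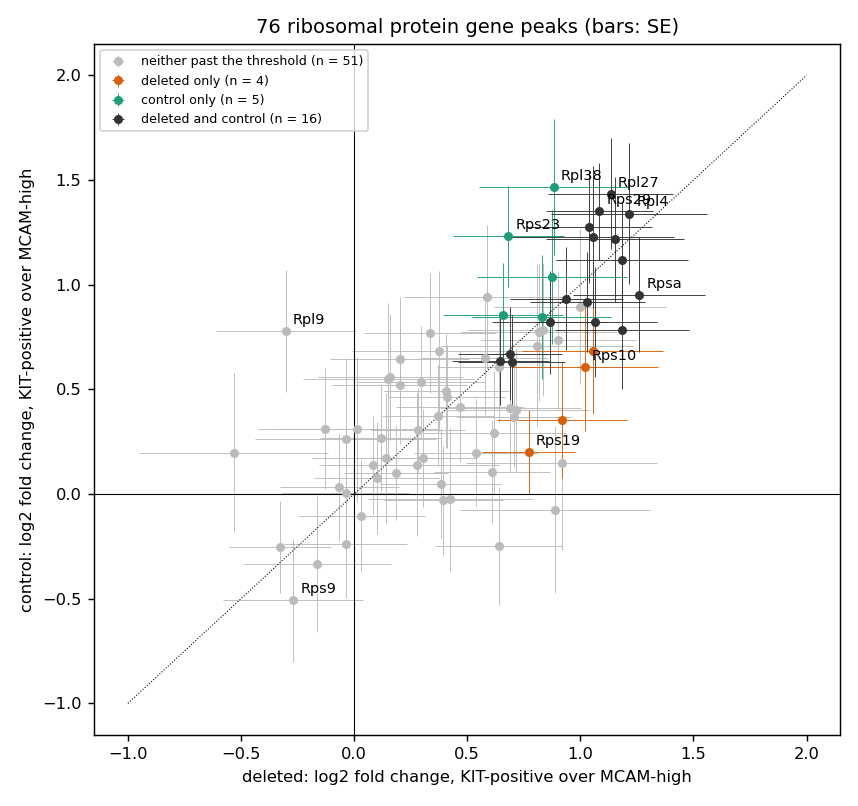
Log2 fold change of KIT-positive over MCAM-high cells for 76 ribosomal protein gene peaks in deleted (horizontal axis) and control libraries (vertical axis), with bars showing the SE. The 16 peaks past the threshold in both genotypes lie in the upper right, and 51 passed it in neither.

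Against MCAM-medium cells, KIT-positive cells gave fewer calls. In deleted cells 11 of 76 were higher (4.59% of all and 9.75% of gene-end peaks were) and 0 lower (2.27% of all), with a median of 0.43 against 0.23 over gene-end peaks. In control cells, where MCAM-medium has only 2 libraries, 10 of 76 were higher (5.7% of all and 9.96% of gene-end peaks were) and 0 lower (3.62% of all), with a median of 0.46 against 0.25 over gene-end peaks. The control count was 0 without control MCAM-medium replicate 1 and 2 without replicate 2 or without KIT-positive replicate 3, and the deleted count was 2 without deleted MCAM-medium replicate 1. With 1 control MCAM-medium library left, that library is assumed to vary like the other groups. No share of all peaks called was computed in the fits without single libraries. Rps29 changed by 1.19 ± 0.24 in deleted and 1.12 ± 0.27 in control cells (edgeR adjusted p = 0.000931 and 0.00481). Rps26, a small subunit protein, led the control list at 1.31 ± 0.39 (edgeR adjusted p = 0.0272), and Rps15 the deleted list at 1.21 ± 0.31 (edgeR adjusted p = 0.0112). The lists of the 2 genotypes shared 5 genes, which is 45.5% of the deleted and 50% of the control list. Pearson's r between their log2 fold changes was 0.57, again as a description only. Rpl27a was called in both genotypes, at 1.0 in deleted and 1.10 in control cells. Without control MCAM-medium replicate 1 or 2 the control calls of Rps26 (edgeR adjusted p = 0.229 and 0.125), Rps29 (0.076 and 0.0753) and Rpl27a (0.0711 and 0.148) were lost, that of Rps26 also without KIT-positive replicate 1 or 3 (0.101 and 0.0826). In deleted cells the call of Rps15 was lost without MCAM-medium replicate 1 (edgeR adjusted p = 0.105), and that of Rpl27a without MCAM-medium replicate 1 or 3 (0.0513 and 0.0608) and with loess scaling (0.0621). The control calls of Rps26, Rps29 and Rpl27a also ended in a fit to only the groups compared (edgeR adjusted p = 0.0705, 0.0538 and 0.0686). With source number within genotype as a block they ended too (edgeR adjusted p = 0.116, 0.0505 and 0.0536). That of Rps26 also ended by total counts and without the filter (edgeR adjusted p = 0.0603 and 0.0528). These contrasts use the same KIT-positive libraries as those against MCAM-high cells.

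Between MCAM-medium and MCAM-high cells no ribosomal protein peak passed the threshold. Of 76, 0 passed the edgeR threshold in deleted cells (0.014% of all peaks did), 4 had an unadjusted p under 0.05 and DESeq2 called 0. In control cells 0 passed (0% of all peaks) and 1 had an unadjusted p under 0.05, Rpl38 at 0.76 ± 0.36 (edgeR adjusted p = 1). Its control values were 22.3 and 22.4 CPM in MCAM-medium libraries, against 10.7, 12.9 and 16.4 CPM in MCAM-high libraries. In deleted cells the smallest p was that of Rps14, at 0.68 ± 0.30 (edgeR adjusted p = 0.441).

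Genes near the same pathway gave the background to these counts. Of 17 genes for translation factors and other known oligopyrimidine-tract transcripts, 7 were higher in deleted KIT-positive than in deleted MCAM-high cells and 9 in control cells, with medians of 0.70 and 0.87 and 0 lower. Among them, Tpt1, a growth-related protein, rose by 1.4 in deleted and 1.39 in control cells, Rack1, a scaffold on the small subunit, by 1.53 and 1.35, and Npm1, a nucleolar chaperone, by 0.83 and 1.06. The elongation factor gene Eef2 was at 0.38 and -0.02, neither past the threshold. Of 6 ribosomal proteins outside the symbol rule 2 were higher in either genotype: Fau at 0.79 in deleted and 1.54 in control cells, and Rpl36al at 0.73 and 0.99. Mitochondrial ribosomal proteins, which serve the separate ribosome of mitochondria, gave 13 of 74 in deleted and 20 of 74 in control cells, with medians of 0.34 and 0.46. Of 9 tested regulators of the pathway 2 were higher in deleted cells, Mtor and Eif4ebp2, and 3 in control cells, Rps6kb1, Eif4ebp1 and Eif4ebp2. Eif4ebp2, an mTOR-controlled repressor of initiation, rose by 1.75 in deleted and 1.19 in control cells. Whether the ribosomal protein genes differ from these lists was not tested.

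Features of the genes were set beside these calls as a description. In control cells 8 of the 25 tested genes with a C or T run were higher in KIT-positive cells, with a median of 0.61, against 9 of 32 without one, with a median of 0.54. In deleted cells the counts were 8 of 25 and 7 of 32, with medians of 0.61 and 0.63, the opposite order. Hosts of small nucleolar RNA genes gave 6 of 27 in deleted and 5 of 27 in control cells, and the other genes 14 of 49 and 16 of 49.

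The deletion of TERT moved no ribosomal protein peak past the threshold in any population. Of 76, 0 passed the edgeR test in MCAM-high cells (0.0489% of all peaks did), 0 in MCAM-medium cells (0.00873%), 0 in KIT-positive cells (0.00349%) and 0 in the mean over the 3 populations (0.124%). Those at an unadjusted p under 0.05 numbered 0, 0, 2 and 0, and DESeq2 called 0 in each. Medians of the log2 fold change, deleted minus control, were -0.08, -0.02, -0.07 and 0.00. In the mean over populations single genes ran from -0.35 for Rps28 to 0.39 for Rpl23, with a median SE of 0.17. In single populations the median SE was 0.28 to 0.31, so that changes of that size in 1 gene could not be detected with these libraries. In simulated counts of these libraries most 2-fold changes were not called, so 0 calls do not show that changes of that size are absent.

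The smallest p values in the deletion comparisons were not accompanied by separate groups throughout. In KIT-positive cells Rpl5 had 73.7, 51.2 and 59.3 CPM in deleted libraries, against 33.4, 48.2 and 32.7 CPM in control libraries, a log2 fold change of 0.69 ± 0.29 (edgeR adjusted p = 1). Rpl9 had 14.9, 37.1 and 27.2 CPM in deleted libraries, against 36.5, 42.6 and 50.9 CPM in control libraries, at -0.73 ± 0.30 (edgeR adjusted p = 1). The deleted libraries were all higher for Rpl5, while for Rpl9 the groups overlapped. In MCAM-high cells the X-linked Rpl10 had 25.9, 24.2 and 21 CPM in deleted libraries, against 27.9, 32 and 47.6 CPM in control libraries, at -0.61 ± 0.31 (edgeR adjusted p = 0.852). Over the 3 populations the smallest p was that of Rpl35, at -0.31 ± 0.16 (edgeR adjusted p = 0.913).

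Later germ cells differed from KIT-positive cells in both directions. Of 77 peaks 14 were higher and 22 lower than in control KIT-positive cells, against 29.2% of all peaks higher and 22.8% lower, shares of 18.2% and 28.6% for the ribosomal protein genes. The median log2 fold change was 0.09, against -0.21 over gene-end peaks and 0.12 over all peaks. These 2 groups also differ in the labelled Tert allele and in whether a time point after tamoxifen is entered, which cannot be told apart from stage. Against MCAM-high cells, 38 were higher and 15 lower (33.5% and 24.9% of all peaks), with a median of 0.53. The median over all peaks was 0.01. Those higher include Rps2, whose peak passed the filter only through the later libraries. Without single libraries, 33 to 37 were higher and 12 to 14 lower than in MCAM-high cells. With loess scaling, 31.5% of gene-end peaks were higher than in MCAM-high cells, and the gene-end median was 0.04. DESeq2 gave 26 higher and 17 lower against KIT-positive cells. The later libraries named spermatocyte alone gave 9 higher by edgeR, with a median of -0.15. The share of all peaks called was not computed for DESeq2, for these libraries or without single libraries. Whether these counts moved more than those of all peaks is therefore not known.

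All 4 X-linked genes fell in later germ cells. Rps4x, the X-linked form of a small subunit protein, had 3.6, 3.29, 0, 0 and 2.31 CPM in later germ cells, against 33.4, 16.8 and 24.9 CPM in control KIT-positive cells. At 3 counts the values of 0, in later replicates 3 and 4, allow up to 2.09 and 1.81 CPM by unadjusted totals. By TMM-adjusted totals these limits are higher. In replicate 4 the 3 counts of Rpl39 were 2.05 CPM, and in replicate 3 the 1 count of Rpl36a was 0.794 CPM. Its log2 fold change was -3.60 ± 0.45 (edgeR adjusted p = 1.83e-09). Rpl36a, a large subunit protein, had 8.63, 5.26, 0.794, 2.74 and 1.73 CPM in later germ cells, against 42.7, 24.6 and 52.1 CPM in KIT-positive cells. Its change was -3.25 ± 0.36 (edgeR adjusted p = 6.35e-11). No later library overlapped with a KIT-positive one for either gene.

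Rpl39, a small protein near the exit tunnel of the large subunit, had 3.24, 3.29, 1.59, 2.05 and 3.47 CPM in later germ cells, against 16.3, 19 and 26.1 CPM in control KIT-positive cells. Its change was -2.88 ± 0.41 (edgeR adjusted p = 5.59e-08). Rpl10, which joins the large subunit late in its assembly, was affected less. It had 28.8, 18.4, 17.5, 17.1 and 22 CPM in later germ cells, against 38.8, 39.2 and 52.1 CPM in KIT-positive cells, at -1.08 ± 0.27 (edgeR adjusted p = 0.000603). All later libraries were lower for both genes. Of all gene-end peaks on the X chromosome 63.2% were lower, with a median of -1.55, against 30% on autosomes, with a median of -0.18. Of the 73 autosomal ribosomal protein peaks 18 were lower and 14 higher, and the lowest of them, Rps10, was at -1.93.

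Of the autosomal copies, Rpl10l rose. It had 69.4, 77.6, 78.6, 65 and 57.8 CPM in later germ cells, against 38.8, 38.1 and 43 CPM in control KIT-positive cells, a log2 fold change of 0.75 ± 0.23 (edgeR adjusted p = 0.0051). Every later library was higher. With only the later libraries named spermatocyte the value was 0.58 (edgeR adjusted p = 0.0937). Rpl39l had 28.8, 20.4, 10.3, 21.9 and 13.9 CPM in later germ cells, against 10.1, 11.2 and 17 CPM in KIT-positive cells, and these ranges overlapped. Its value was 0.54 ± 0.37 (edgeR adjusted p = 0.229). In MCAM-high cells Rpl10l was already at 40.8 ± 8.27 CPM in deleted and 39.2 ± 3.63 CPM in control libraries (SD, n = 3 each). There Rpl39l was lower, at 9.6 ± 0.623 CPM in deleted and 13.8 ± 3.73 CPM in control libraries (SD, n = 3 each).

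**Figure D4:**
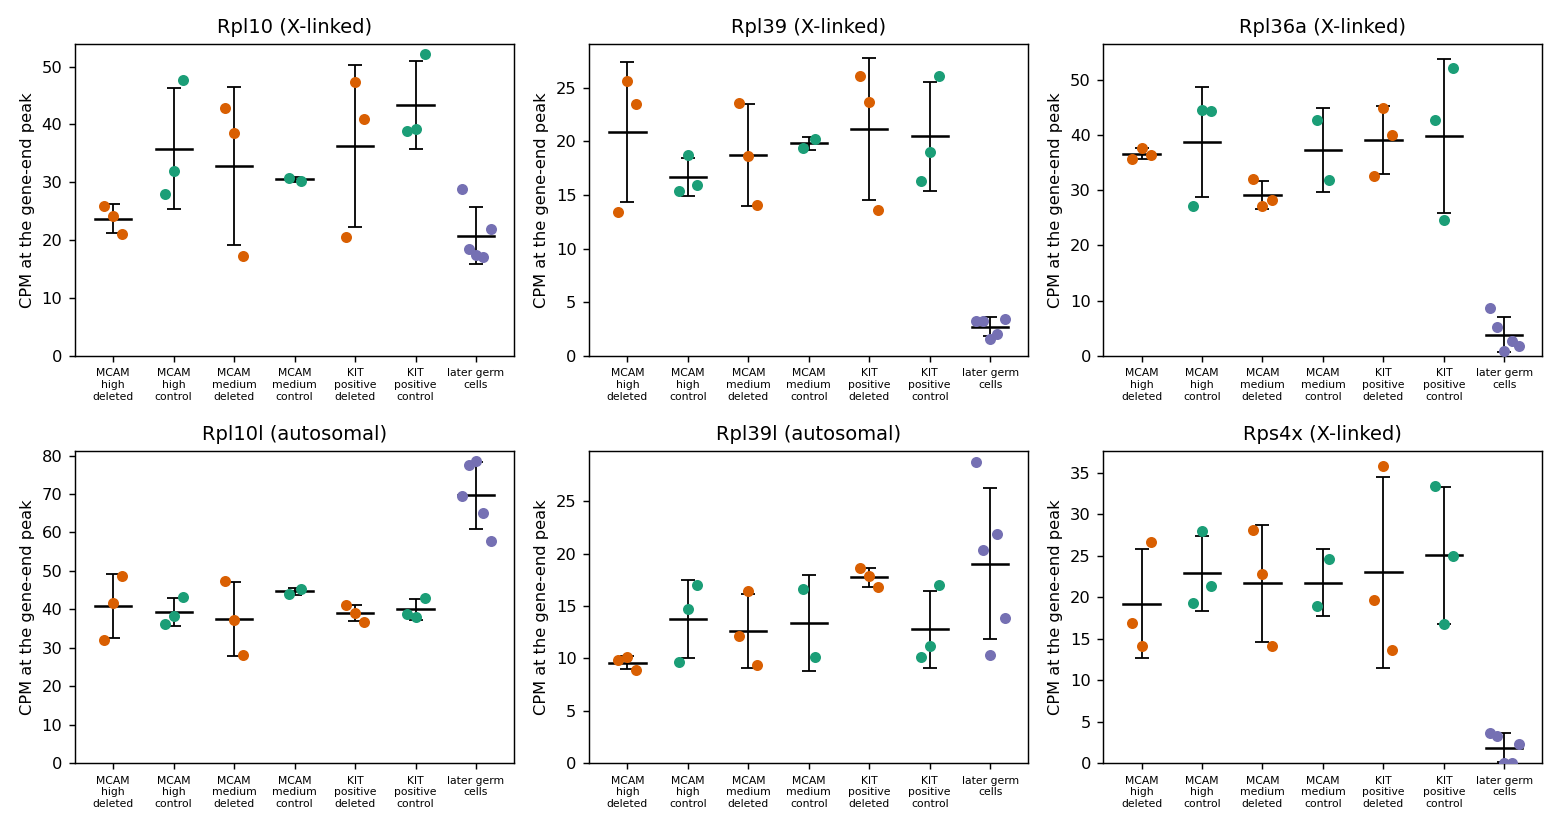
CPM in every library (points) at the gene-end peaks of 4 X-linked ribosomal protein genes and of the autosomal copies Rpl10l and Rpl39l, by group, with the mean and SD (bars). Later germ cells lie below all spermatogonial groups for Rpl36a, Rpl39 and Rps4x, and above all of them for Rpl10l.

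The autosomal genes with the largest falls included 3 of the most accessible ones named above. Rpl15, a core protein of the large subunit whose peak is shared with Nkiras1, had 52.9, 63.8, 43.7, 32.2 and 40.5 CPM in later germ cells, against 140, 134 and 195 CPM in control KIT-positive cells. Rps19 had 71.2, 65.8, 60.4, 42.4 and 56.7 CPM in later germ cells, against 137, 130 and 210 CPM in KIT-positive cells. Rpl37, shared with Card6, had 62.9, 55.2, 47.6, 43.1 and 40.5 CPM, against 116, 108 and 198 CPM. None of these groups overlapped, and the log2 fold changes were -1.79 ± 0.20, -1.46 ± 0.20 and -1.53 ± 0.21 (edgeR adjusted p = 1.21e-10, 1.06e-08 and 1.37e-08). Rps10 had 15.8, 14.5, 19.1, 9.58 and 10.4 CPM, against 31.1, 37 and 83.7 CPM, at -1.93 ± 0.30 (edgeR adjusted p = 2.63e-07).

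Several autosomal genes rose. Rps27, a zinc-finger protein of the small subunit whose peak is shared with Rab13, had 68.3, 49.3, 46.9, 65 and 54.3 CPM in later germ cells, against 21.7, 10.1 and 35.2 CPM in control KIT-positive cells, at 1.24 ± 0.29 (edgeR adjusted p = 0.000277). Rpl3, which lies near the peptidyl transferase centre, had 62.9, 66.4, 31, 51.3 and 61.9 CPM, against 22.5, 28 and 27.9 CPM, at 1.04 ± 0.29 (edgeR adjusted p = 0.00207). Rpl41, one of the smallest known proteins, whose peak lies at its far end, 958 bp from the start, and is shared with Zc3h10, rose by 0.99. Rps9 rose by 1.03. For each of these genes every later library lay above every KIT-positive library.

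The values or calls of Rps2, Rps18 and Rpl18 depended on which peak stands for the gene. At the chosen peak, shared with Rnf151, Rps2 had 37.4, 34.9, 46.1, 36.3 and 41.6 CPM in later germ cells, against 2.33, 1.12 and 2.42 CPM in control KIT-positive cells, levels near that of 3 counts. It passed the filter only through the later libraries, so no fold is given, and it is 1 of the 14 counted as higher. It is also counted among the peaks higher than in MCAM-high cells. At the start-site peak (chr17:24719674-24720393) it had 67.2, 81.6, 53.2, 43.8 and 67.1 CPM, against 72.2, 96.3 and 103 CPM, at -0.57 ± 0.22 (edgeR adjusted p = 0.0235). Later germ cells were thus higher at the chosen peak and lower at the start-site peak. Rpl18 was at 0.01 at the chosen peak (edgeR adjusted p = 0.985) and at 0.82 ± 0.31 at the start-site peak (edgeR adjusted p = 0.0229). Rpl19 was at 1.59 at the chosen peak, shared with Cacnb1, and at 1.22 at the start-site peak, past the threshold at both. Rps18 was at -1.21 at the chosen peak, shared with B3galt4, and at 0.09 at the start. Rpl3l, at -1.31 (edgeR adjusted p = 3.15e-05), has no start-site peak, so no other value was computed.

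**Figure D5:**
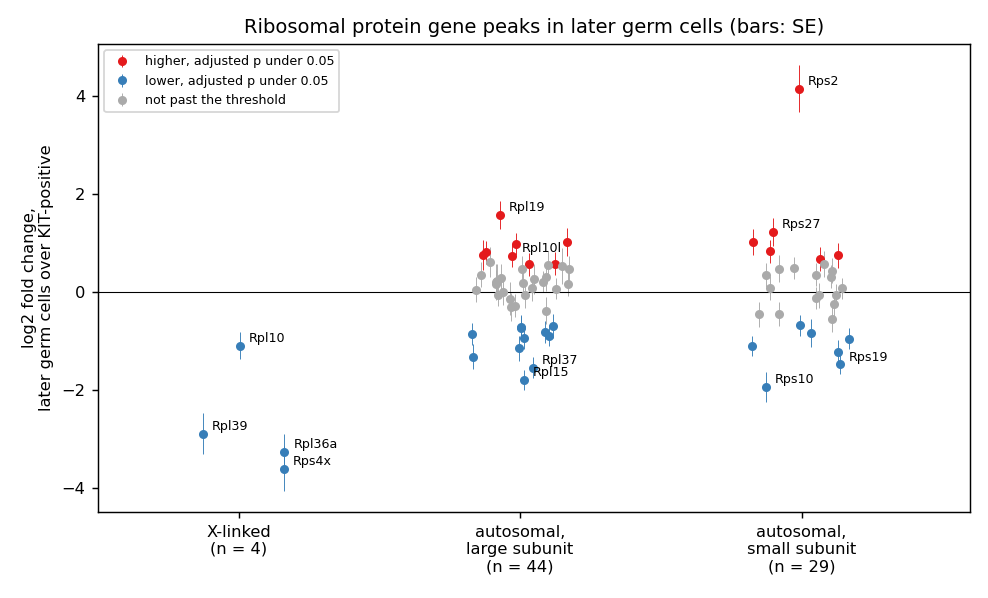
Log2 fold change of later germ cells over control KIT-positive cells for 77 ribosomal protein gene peaks, split into X-linked, autosomal large subunit and autosomal small subunit genes, with bars showing the SE and colours the call at an edgeR adjusted p under 0.05. The 4 X-linked genes lie at -3.60 to -1.08, and the outlying Rps2 value comes from a peak shared with Rnf151 whose KIT-positive levels are near that of 3 counts.

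Start-site peaks also added 2 genes that the gene-end rule missed. Rpl22, a large subunit protein studied for its role in lymphocyte development, had 71.8, 72.3 and 62.5 CPM in deleted KIT-positive libraries, against 25, 29.6 and 25.1 CPM in deleted MCAM-high libraries. In control cells it had 49.7, 59.4 and 83.7 CPM in KIT-positive libraries, against 28.3, 31.6 and 22.4 CPM in MCAM-high libraries. The groups did not overlap, and the log2 fold changes were 1.37 ± 0.27 in deleted and 1.23 ± 0.26 in control cells (edgeR adjusted p = 0.000369 and 0.000681). Rps27l, a copy of Rps27 known as a p53 target, was at 0.61 in deleted and 0.69 in control cells, past the threshold in neither. With start-site peaks, 21 ribosomal protein peaks were higher in deleted and 24 in control KIT-positive cells than in MCAM-high cells. Of all peaks tested in the same fit, 9.39% were higher in deleted and 9.64% in control cells. The 20 genes without a listed start kept their gene-end peak in these counts, where they had one.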

How the data were processed

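The authors deposited 1 table of read counts per peak, whole numbers for 96049 peaks and 22 libraries, which matched the sample labels. The tools listed in the submitters' processing notes are Bowtie2, FastQC, Picard and SAMtools, and the builds mm10, GRCm38 and hg19, with no role stated; the peak caller, the counter and any Tn5 shift are not given in the sources used here. Whether peak starts count from 0 or 1 is also not given. Peaks were matched to RefSeq gene ends within 1000 bp. The test was that of edgeR 4.0.16 (R 4.3.3; TMM, quasi-likelihood F test, Benjamini-Hochberg adjustment over all peaks, threshold 0.05). All 17 spermatogonia libraries shared 1 fit, with 57289 peaks after the expression filter, and 13 control and later libraries shared another, with 73134. The Rps2 peak failed the filter in the first. The SE is the log2 fold change divided by the root of F. Alternatives used DESeq2 1.42.0, total counts, loess offsets (limma 3.58.1, span 0.3), no filter, other peak choices, a replicate block, subsets and leaving out libraries; start-site peaks and the split by library name were added after seeing the data. The script was tested on simulated data; a first criterion on 4-fold changes at any count was missed and replaced by one on peaks with higher counts, and most 2-fold changes were not recovered. The text names a fixed set of paralogue, stalk and disease-linked genes, up to 6 called genes per direction and comparison, the smallest p-values where fewer than 3 were called, and the extremes of level; Rps14, Rps15a, Rps6 and a few more are described outside that rule. Members and lists were chosen with earlier results of these data known. Counting error and floors do not cover PCR duplicates. Some genes that the naming rule gives are not reported here.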

Additional observations from a re-analysis of the deposited data

Results flagged for a closer look

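Rpsa in later germ cells was set apart by 1 library: replicate 1 had 70.8 CPM, against 38.1, 40.5, 44.5 and 46.2 CPM in the other later libraries, a gap of 0.752 of the whole range, where 0.71 is the limit for 5 libraries. Among 49 values examined in this group it was the 1 found. Chance alone flags about 1 in 20 of the values examined, so 1 flag in 49 is not beyond chance.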

How the results depend on the processing

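In control KIT-positive against MCAM-high cells the count of 21 ribosomal protein peaks ran from 14 to 24 over the other settings and from 10 to 21 without single libraries (10 without KIT-positive replicate 3), with medians of 0.347 by total counts, 0.308 with loess offsets and 0.411 to 0.596 without single libraries. TMM put the median of all peaks at -0.05, total counts at -0.219. For deleted cells total counts and loess offsets each gave 11, with medians of 0.389 and 0.291, the fit to only the compared groups a median of 0.502, and leaving out libraries 11 to 18 (medians 0.541 to 0.626). Against MCAM-medium cells, control counts were 4 by total counts, 4 with loess offsets, 3 without the filter, 1 with only the compared groups and 0 to 13 without single libraries (medians 0.409 to 0.556). Deleted counts were 5 by total counts, 4 with loess offsets and 2 to 9 without single libraries, with medians of 0.243, 0.23 and, for only the compared groups, 0.338. With loess offsets, 4.28% of all and 4.98% of gene-end peaks were higher in control cells. In deleted cells these shares were 2.94% and 3.05%. Deviations of same-numbered libraries from their group means correlated at -0.334 to 0.074, or at -0.334 to 0.047 for pairs within a genotype. With so few libraries per group, these values cannot show whether the libraries are paired. For contrasts within a genotype, the replicate block was the source number in the library name. The replicate block gave 15 in control KIT-positive against MCAM-high, 1 in control and 7 in deleted KIT-positive against MCAM-medium, and a median of 0.047 in control MCAM-medium against MCAM-high cells, which ran from -0.014 to 0.057 without single libraries. Leaving out single libraries gave medians of -0.062 to 0.185 for the genotype difference and -0.087 to 0.098 for deletion in KIT-positive cells, with 0 calls throughout. Later germ cells against KIT-positive cells gave 26 higher with DESeq2 and 9 with the libraries named spermatocyte (median -0.153). Against MCAM-high cells those libraries gave 25 higher, and the median was 0.312 by total counts and 0.74 with DESeq2. Apart from loess offsets, the share of all peaks called was not computed in these refits, so their counts have no background beside them.

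Signs turned round for the following genes, most of them near 0; Rps2 and Rpl26 were not. In control KIT-positive against MCAM-high cells total counts gave Rpl10l -0.143, Rpl36a -0.105, Rps4x -0.023 and Rps27a -0.113. Loess offsets gave Rpl10l -0.175, Rpl36a -0.105, Rpl39l 0.048, Rps19 -0.381 and Rps27a -0.186, and no filter gave Rpl10l -0.038 and Rps27a -0.013. Without single libraries the ranges were -0.027 to 0.094 for Rpl10l, -0.17 to 0.288 for Rpl36a, -0.363 to 0.086 for Rpl39l, -0.125 to 0.317 for Rps4x, -0.314 to 0.117 for Rpl3l, -0.529 to 0.265 for Rps27, -0.058 to 0.308 for Rps19 and -0.203 to 0.245 for Rps27a. In control MCAM-medium against MCAM-high cells Rpl26 ran from -0.019 to 1.145. In later germ cells against KIT-positive cells the ranges were -0.303 to 0.029 for Rpsa, -0.119 to 0.199 for Rpl5, -0.039 to 0.247 for Rps6 and -0.113 to 0.304 for Rpl38. Rpsa was at 0.055 with loess offsets, 0.133 with DESeq2 and 0.117 with later libraries titled spermatocyte. The fit to only the compared groups gave Rpl5 -0.081, Rps6 -0.044 and Rpl38 -0.044. Libraries titled round spermatid gave Rpl5 -0.345 and Rpl38 -0.206, and those named spermatocyte -0.361 and -0.288. At its start-site peak Rps2 was at -0.568 against KIT-positive and -0.039 against MCAM-high cells. The cause was not tested. The effect of depth, lowest at 922085 counts, was not tested either.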
